A study of Mus musculus with 3 samples.

Results

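Ccn1, Ccn2, Ankrd1, Amotl2, Ajuba, Lats2 and Axl are genes known as transcriptional targets of the co-activator YAP, and they were taken by symbol as 7 of the 32285 mouse genes in the count files of 3 heart sections. All 7 symbols were found, and each gene had at least 50 unique molecular identifiers (UMIs) in every pair of sections compared. The sections were measured by Visium, an assay that captures RNA from a tissue section at an array of barcoded spots, each of which covers a small region that usually holds several cells. All mice were C57BL/6, and the methods of the study give their age as 8 weeks. The sham mouse had vehicle by gavage for 7 days and then a needle passed around the left anterior descending artery without ligation. The I/R mouse had the same vehicle and then 30 min of ligation followed by 24 h of reperfusion. The SBP mouse had the same ischemia and reperfusion after 7 days of gavage with MUSKARDIA (Shexiang Baoxin Pill, SBP), a pill of traditional Chinese medicine. Each condition had 1 section of 1 mouse, so mouse and condition cannot be told apart, no test between conditions was possible and no p-value is given.

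In the Hippo pathway, the kinases Stk3 and Stk4 with the adaptor Sav1 activate Lats1 and Lats2, which phosphorylate YAP and its relative TAZ (gene Wwtr1) and keep them out of the nucleus. When the kinases are less active, or when cells are stretched or spread, YAP enters the nucleus, binds transcription factors of the TEAD family and raises its targets. In the heart the pathway is known for restraining cardiomyocyte proliferation and for its part in repair and fibrosis after infarction. Several targets act back on the pathway, among them Lats2, Amotl2 and Ajuba, while Ccn1 and Ccn2 encode secreted proteins of the matrix.

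After leaving out spots with fewer than 200 detected genes, 2234 sham, 2082 I/R and 1960 SBP spots remained, with a median of 10645, 14672 and 10652.5 UMIs per spot. The mitochondrial share of UMIs was 48.6%, 44.3% and 46.3% in sham, I/R and SBP. The 6 cardiomyocyte markers Myh6, Tnnt2, Actc1, Ttn, Pln and Ryr2 were present in every section, with no marker under 3405 UMIs. Their summed level per 1000000 UMIs (CPM) was 20241, 15946 and 17470 in the same order, and that of 5 neutrophil markers was 28.3, 241 and 118. For the 4 smooth muscle markers Acta2, Myh11, Tagln and Cnn1 the sum was 317 CPM (sham), 237 (I/R) and 124 (SBP), the last below I/R as for Ccn1 and Ccn2. Acta2 made up most of this sum, with 254, 168 and 83.0 CPM. From sham to I/R, Myh11 differed little (23.5 and 21.2 CPM), while Tagln (34.7 and 38.5) and Cnn1 (5.26 and 10.0) were higher. All 4 were lower in SBP than in I/R. The part of these shifts in the values that follow was not tested, and in a spot fewer cells of a type and less RNA per cell cannot be told apart. Of the spot barcodes, 1093 occurred in all 3 sections. A Visium barcode names a place on the array, so shared barcodes are shared places and not shared cells.

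YAP reaches its targets through TEAD factors, whose motif has the core GGAATG. RefSeq promoter entries (GRCm38.p6) were matched for 6 of the 7 genes. Ccn2 had no entry, so its promoter was not searched. For the others, the 250 bases before the transcription start were searched for this core on both strands. It was present in the windows of Ccn1, Ankrd1, Amotl2, Ajuba and Axl, and in neither window of Lats2. Both Lats2 windows (chr14:57746124-57746373 and chr14:57734419-57734668) lie inside the gene as annotated in GENCODE M21. The bases before the outer 5′ end of Lats2, at chr14:57758388, were not searched. Of the 32851 promoter windows of the table, 12.6% held the core. The whole windows of Ccn1, which differed between sections, and of Ajuba, which did not detectably, are printed 5′ to 3′ on the strand of the gene with the motif in capitals. They lie on the minus strand at chr3:145649986-145650235 and chr14:54577662-54577911 and touch no exon of the GENCODE M21 annotation.
Ccn1: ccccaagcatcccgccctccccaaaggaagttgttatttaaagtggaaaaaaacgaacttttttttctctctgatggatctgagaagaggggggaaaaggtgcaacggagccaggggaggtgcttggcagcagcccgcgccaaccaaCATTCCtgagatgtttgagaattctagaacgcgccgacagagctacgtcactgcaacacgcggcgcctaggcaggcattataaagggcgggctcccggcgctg
Ajuba: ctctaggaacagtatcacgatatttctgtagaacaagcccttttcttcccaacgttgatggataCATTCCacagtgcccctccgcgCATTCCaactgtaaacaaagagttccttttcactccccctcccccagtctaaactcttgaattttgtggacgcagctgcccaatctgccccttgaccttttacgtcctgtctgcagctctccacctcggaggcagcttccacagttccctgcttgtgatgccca
The match of Ccn1 lies 103 to 98 bases before the start, and those of Ajuba lie 186 to 181 and 164 to 159 bases before it, all on the other strand. All 250 bases of the Ankrd1 window and 136 of the Amotl2 window lie in GENCODE M21 exons, so for these genes 30 bases around each match are shown, at chr19:36120037-36120066 and chr19:36119950-36119979 on the minus strand for Ankrd1 (210 to 205 and 123 to 118 bases before the start) and at chr9:102717727-102717756 on the plus strand for Amotl2 (65 to 60 bases before it).
Ankrd1, upstream match: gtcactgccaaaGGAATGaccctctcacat
Ankrd1, downstream match: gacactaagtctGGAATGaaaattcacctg
Amotl2: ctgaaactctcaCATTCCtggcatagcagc
No window of the 6 genes held TGANTCA, a motif of AP-1 factors that 6.75% of all windows hold, nor a CArG box, the motif of the factor SRF, which 1.47% hold. These matches describe the letters in the window and no binding was measured here.

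The question for each gene was whether its level differed between the sections. Ccn1 and Ccn2 were several-fold higher in the I/R section than in the sham section and lower again in the SBP section, whereas the other 5 genes differed by less than 2-fold in every comparison. Ccn1 (ENSMUSG00000028195, GRCm38 chr3:145646976-145649981, minus strand) encodes a secreted matricellular protein that binds integrins. The sham section had 14.4 CPM (95% interval 13.0 to 16.0, 362 UMIs), the I/R section 46.0 (43.7 to 48.5, 1392 UMIs) and the SBP section 13.8 (12.3 to 15.4, 298 UMIs). The I/R section was 3.19-fold above sham, 1.68 on the log2 scale (1.51 to 1.85), and the SBP section was 3.34-fold below I/R, a log2 ratio of -1.74 (-1.93 to -1.56). Over the whole sections, sham and SBP lay within counting error of each other, with a log2 ratio of -0.065 (-0.29 to 0.16). All intervals are exact, at the 95% level, and cover counting error only.

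Ccn2 (ENSMUSG00000019997, chr10:24595442-24598683, plus strand), once named connective tissue growth factor, encodes the related secreted protein known for its rise in fibrosis. The sham section had 28.2 CPM (26.1 to 30.3, 708 UMIs), the I/R section 158 (154 to 163, 4787 UMIs) and the SBP section 42.7 (39.96 to 45.5, 923 UMIs). The log2 ratio was 2.49 for I/R over sham (2.38 to 2.61), a fold of 5.62, and -1.89 for SBP over I/R (-1.99 to -1.79), a fold of 3.71 downward. Unlike Ccn1, Ccn2 stayed above sham in the SBP section, with a log2 ratio of 0.60 (0.46 to 0.74). The antisense gene Gm15270 overlaps Ccn2 and had 21 to 49 UMIs in a section, and whether the counting used strand is not given in the sources used here. Among the 12231 genes with at least 50 UMIs in sham and I/R, Ccn2 ranked 85th and Ccn1 285th from the highest I/R over sham ratio.

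Ankrd1 (ENSMUSG00000024803, chr19:36111961-36120099, minus strand) encodes a muscle ankyrin repeat protein of the sarcomere and nucleus that is induced by cardiac stress. Sham had 879 CPM (867 to 891), I/R had 1715 (1700 to 1729) and SBP had 1367 (1352 to 1383). The order of the 3 sections was the same as for Ccn2, but the distance of SBP from I/R was smaller, with a log2 ratio of -0.33 against 0.96 for I/R over sham.

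The feedback regulators differed less. Amotl2 (ENSMUSG00000032531, chr9:102716672-102733418, plus strand), an angiomotin relative that holds YAP at cell junctions, had a sham level of 15.7 CPM (14.2 to 17.4), an I/R level of 23.1 (21.4 to 24.9) and an SBP level of 16.6 (14.9 to 18.4). Its log2 ratio was 0.55 for I/R over sham (0.37 to 0.74) and -0.48 for SBP over I/R (-0.67 to -0.29), so that its I/R section lay above both others. Lats2 (ENSMUSG00000021959, chr14:57689662-57758388, minus strand), a kinase that phosphorylates YAP and whose locus overlaps Gm49361 (not analysed here), had levels of 10.6, 13.9 and 12.9 CPM in that order of sections, and log2 ratios of 0.40 (0.18 to 0.63) from sham to I/R and -0.12 (-0.34 to 0.11) from I/R to SBP. Ajuba (ENSMUSG00000022178, chr14:54567472-54577558, minus strand), a LIM protein that restrains the LATS kinases, had 5.34, 5.79 and 5.73 CPM on 124 to 175 UMIs. No difference of Ajuba between sections was detectable at this depth.

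Axl (ENSMUSG00000002602, chr7:25757273-25788705, minus strand) encodes a receptor tyrosine kinase whose ligand is Gas6. Levels of 57.1 CPM (sham), 64.3 (I/R) and 70.1 (SBP) made it the only one of the 7 genes with its highest level in SBP. Its log2 ratio was 0.17 for I/R over sham (0.071 to 0.27) and 0.13 for SBP over I/R (0.027 to 0.22). Both are small and turn with the scaling. I/R over sham was -0.059 with trimmed-mean-of-M-values (TMM) factors and -0.066 with median-of-ratios factors, and SBP over I/R was -0.0026 with equal weight for each spot.

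**Figure D1:**
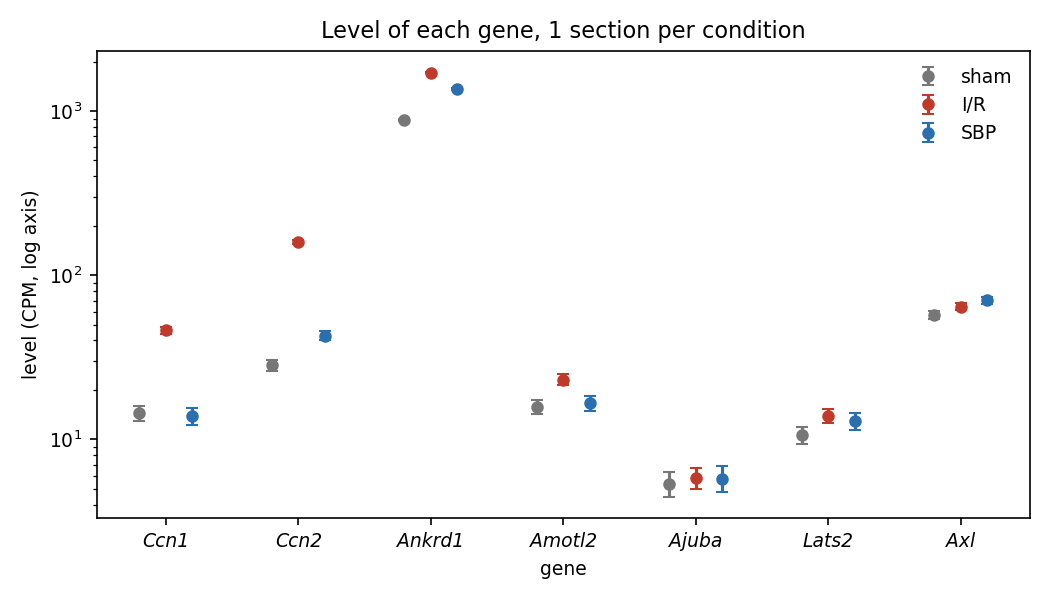
Level in CPM (log axis) of each gene in the sham (grey), I/R (red) and SBP (blue) sections, with points for 1 section each and bars for exact 95% Poisson intervals (counting error only). Ccn1 and Ccn2 sit at 46.0 and 158 CPM in I/R, far above their sham and SBP points, while Ajuba lies between 5.34 and 5.79 in all sections.

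Counted by a fold of 2, 2 of the 7 genes were higher in I/R than in sham (Ccn1 and Ccn2), against 8.38% of the 12231 genes with enough UMIs, and none was lower, against 0.523%. The median log2 ratio was 0.55 over the 7 genes and 0.24 over all. For SBP over I/R, the same 2 genes were lower by at least 2-fold, against 4.53% of 12151 genes, and none was higher, against 0.337%, with a median of -0.33 against -0.17 over all. None of the 7 was higher by 2-fold in SBP than in sham, where 1.48% of 11768 genes were. I/R over sham and SBP over I/R share the I/R section, so that a high value there enters both ratios.

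The next question was where in the sections these genes lay. Ankrd1-high spots were those above the 95th percentile of Ankrd1 in sham spots, 27.0 per 10000 UMIs. They were 112 of 2234 spots in sham (5.01%, which the threshold fixes), 479 of 2082 in I/R (23.0%, 21.2 to 24.9) and 326 of 1960 in SBP (16.6%, 15.0 to 18.4). Such spots had a lower mitochondrial share than the others, 40.6% against 45.7% in I/R and 43.9% against 46.9% in SBP, and more UMIs, with a median of 17348 against 14103 in I/R.

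Ccn2 was concentrated in these spots. In I/R its level was 347 CPM in Ankrd1-high and 88.5 in other spots, a log2 ratio of 1.97 (1.89 to 2.05) and the 3rd highest of 8071 genes. In SBP it was 96.2 against 30.8, a log2 ratio of 1.64 (1.45 to 1.83) and the 12th highest of 6363 genes. Thus 23.0% of the I/R spots, with 27.0% of all UMIs, held 59.2% of the Ccn2 UMIs. In SBP, 16.6% of the spots, with 18.1% of all UMIs, held 40.9%. In sham the levels were 52.0 and 26.3, a log2 ratio of 0.98 (0.66 to 1.297). This sham value was -0.032 when mitochondrial UMIs were left out of the threshold and of the levels, while I/R stayed at 1.47 and SBP at 1.56.

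Ccn1 followed Ankrd1 less closely. It was at 73.7 CPM in Ankrd1-high and 35.8 in other I/R spots, a log2 ratio of 1.04 (0.89 to 1.20), which was 0.54 without mitochondrial UMIs. In SBP it was at 16.3 against 13.2, a log2 ratio of 0.31 (-0.12 to 0.71), not distinguishable from equal levels. In sham it was at 24.9 against 13.6, a log2 ratio of 0.88 (0.40 to 1.33), and 0.33 without mitochondrial UMIs.

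The remaining 4 genes had smaller ratios, all under 0.60. In I/R the ratio was 0.56 for Amotl2 (0.33 to 0.79), 0.49 for Ajuba (0.019 to 0.96), 0.33 for Lats2 (0.028 to 0.64) and 0.31 for Axl (0.16 to 0.44). The median of all genes in I/R was 0.25, and without mitochondrial UMIs Lats2 was at -0.082 and Axl at 0.047. By the 2-fold rule, the genes called higher in Ankrd1-high spots were none of the 6 in sham (4.66% of 6659 genes), Ccn1 and Ccn2 in I/R (1.31% of 8071) and Ccn2 in SBP (1.60% of 6363).

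**Figure D2:**
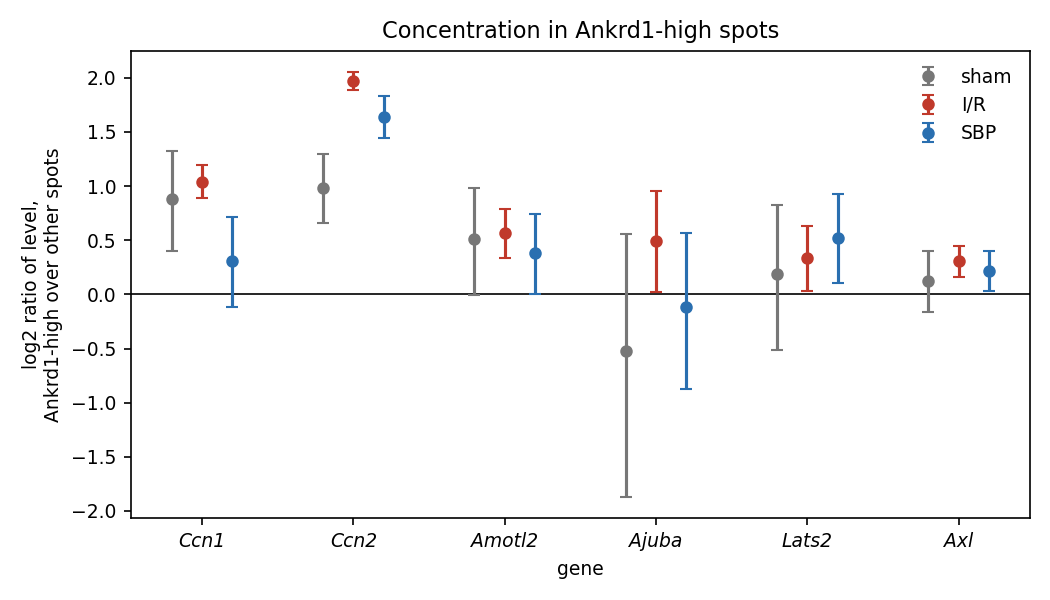
Log2 ratio of the level in Ankrd1-high over other spots for the 6 genes other than Ankrd1, in sham (grey), I/R (red) and SBP (blue), with exact conditional binomial 95% intervals (counting error only). Ccn2 stands highest, at 1.97 (I/R) and 1.64 (SBP), and the SBP interval of Ccn1 includes 0.

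Over 7 bins of Ankrd1 set by the sham percentiles 25, 50, 75, 90, 95 and 99, both CCN genes had higher levels in higher bins of the I/R section. Ccn2 in I/R went through 21.7, 37.9, 64.3, 127, 218, 297 and 419 CPM from the lowest to the highest bin. The SBP section ran lower, through 13.9, 18.9, 29.2, 45.2, 57.5, 74.0 and 136 CPM. In sham Ccn2 went through 18.5, 19.4, 22.8, 40.3, 60.6, 59.9 and 30.5 CPM, the last on 15 UMIs in 23 spots. At like Ankrd1, SBP was thus below I/R in 7 of 7 bins, with a log2 ratio from -0.65 (-1.17 to -0.14) in the lowest bin to -2.003 (-2.23 to -1.78) in the sixth. The difference was therefore also present among spots of the same Ankrd1 range. Without mitochondrial UMIs, in the bins and in the levels, SBP was again below I/R in 7 of 7 bins, but the gap was no longer smallest in the lowest bin. There it was -1.60 (-2.08 to -1.15), near the -1.58 of the sixth and the -1.68 of the highest bin, and the range over the bins was -1.93 to -0.78.

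Ccn1 in I/R went through 12.9, 23.7, 31.6, 51.5, 62.1, 70.1 and 78.8 CPM over the same bins. In SBP it was at 6.55, 6.73, 14.5, 22.1, 17.6, 13.9 and 20.6 CPM, with no higher value past the bin from 75 to 90. SBP was below I/R in 7 of 7 bins for Ccn1 as well, by -2.33 (-2.88 to -1.83) in the sixth and -1.93 (-2.54 to -1.38) in the highest bin. Over all Ankrd1-high spots, SBP over I/R was -1.85 for Ccn2 (-2.01 to -1.69) and -2.17 for Ccn1 (-2.57 to -1.80), and over the other spots -1.52 (-1.66 to -1.38) and -1.44 (-1.66 to -1.23).

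**Figure D3:**
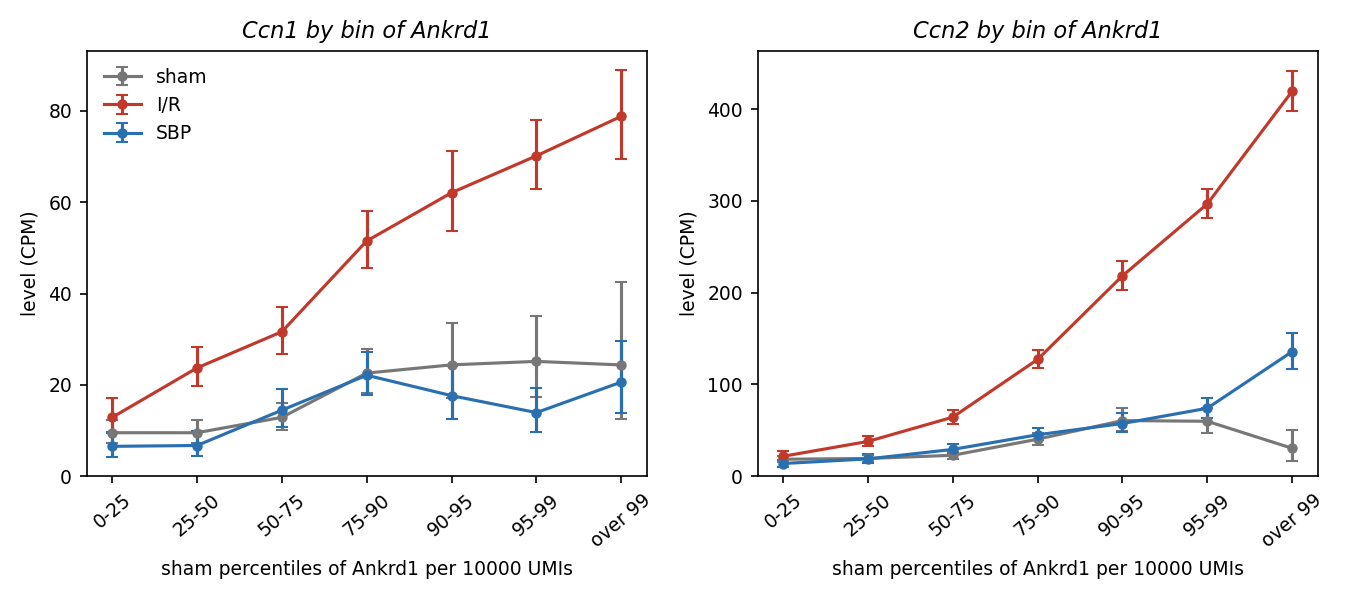
Level in CPM of Ccn1 (left) and Ccn2 (right) over 7 bins of spots by Ankrd1 per 10000 UMIs, with bin limits at percentiles of the sham spots and exact Poisson 95% intervals. The I/R line (red) reaches 78.8 CPM for Ccn1 and 419 for Ccn2 in the highest bin, while SBP (blue) reaches 20.6 and 136 and lies below I/R in every bin.

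Set against Ankrd1 itself, the I/R section had 92.3 Ccn2 UMIs per 1000 Ankrd1 UMIs (89.7 to 94.98), sham 32.1 (29.8 to 34.5) and SBP 31.2 (29.2 to 33.3). This ratio needs no total of UMIs, and by it sham and SBP lay within counting error of each other. For Ccn1 the sham section had 16.4 (14.8 to 18.2), the I/R section 26.8 (25.5 to 28.3) and the SBP section 10.1 (8.96 to 11.3), so that SBP was below sham. Of the UMIs of Ccn1 and Ccn2 together, the Ccn2 part was 66.2% (63.2 to 69.0, sham), 77.5% (76.4 to 78.5, I/R) and 75.6% (73.1 to 78.0, SBP). Within Ankrd1-high spots this share was 82.5% in I/R and 85.5% in SBP, against 71.2% and 70.0% in the other spots. In sham the shares were 67.6% in Ankrd1-high (59.2 to 75.2) and 65.9% in other spots (62.8 to 69.0), with no difference detectable.

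The CCN genes were then set beside both Ankrd1 and the wider injury response. For this, spots were also scored by 7 injury genes (Timp1, Spp1, Lgals3, Tnc, Lox, Runx1 and Fn1). Spots above the sham 95th percentile of their sum, 8.10 per 10000 UMIs, numbered 112 in the sham section, 789 of the I/R spots (37.9%) and 355 of the SBP spots (18.1%). Crossed with Ankrd1, the I/R section had 333 spots high in both, 146 in Ankrd1 only, 456 in injury genes only and 1147 in neither. Spots high in injury genes only were under the Ankrd1 threshold but not low in Ankrd1. In I/R it was at 1640 CPM there against 726 in neither, a log2 ratio of 1.18 (1.14 to 1.22), which was 1.42 in sham and 1.28 in SBP. The classes thus do not fully separate Ankrd1 from the injury response. Ccn2 in I/R was at 444 CPM in spots high in both (426 to 462), 292 in injury only (277 to 309), 160 in Ankrd1 only (146 to 176) and 34.6 in neither (31.9 to 37.5). Each class was thus distinct from the next beyond counting error. The log2 ratio of both over injury only was 0.60 (0.50 to 0.70) and that of Ankrd1 only over neither was 2.21 (2.03 to 2.39), and without mitochondrial UMIs they were 0.63 and 2.20.

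Ccn1 had another order in the same I/R spots. It was highest in spots high in injury genes only, at 119 CPM (109 to 129), then 93.3 in both (85.3 to 102), 35.8 in Ankrd1 only (29.1 to 43.6) and 13.9 in neither (12.2 to 15.8). The ratio of both over injury only was -0.35 (-0.52 to -0.17) in I/R and -1.25 (-1.82 to -0.71) in SBP, and without mitochondrial UMIs it was -0.30 and -1.29. In SBP, Ccn1 was at 57.5 CPM in injury only, 24.2 in both, 10.6 in Ankrd1 only and 8.23 in neither. The injury-only spots had the lowest mitochondrial share in I/R, 26.1% against 37.8% in both and 50.9% in neither, and a median of 8492 UMIs.

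Between sections, SBP was below I/R in all 4 classes for both genes. For Ccn2 the log2 ratio was -2.05 in both (-2.28 to -1.83), -1.40 in injury only (-1.62 to -1.18), -0.86 in Ankrd1 only (-1.11 to -0.62) and -0.67 in neither (-0.86 to -0.47). For Ccn1 it was -1.95 in both, -1.04 in injury only, -1.76 in Ankrd1 only and -0.76 in neither. Leaving out mitochondrial UMIs kept each of these ratios negative, with values from -1.99 to -0.69. Ccn2 in Ankrd1-only spots was at 24.1 CPM in sham (16.5 to 34) and 88.3 in SBP (76.5 to 101), so the SBP section lay between sham and I/R there. For Ccn1, SBP over sham was -0.58 in neither (-0.89 to -0.28), where I/R over sham was 0.18 (-0.079 to 0.43). SBP over sham was -0.88 in Ankrd1 only (-1.75 to -0.026), -0.68 in both (-1.49 to 0.17) and 0.33 in injury only (-0.21 to 0.89). Without mitochondrial UMIs, it was -0.59 in neither (-0.90 to -0.29) and -0.78 in Ankrd1 only (-1.62 to 0.048).

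Axl also lay with the injury genes. In I/R it was at 135 CPM in injury only, 85.9 in both, 53 in Ankrd1 only and 40.7 in neither. In SBP the order was the same, at 130, 82.2, 76.9 and 61.2 CPM, although both (68.9 to 97.2) and Ankrd1 only (65.9 to 89.2) overlapped. The excess of SBP over I/R was found in spots low in injury genes, with a log2 ratio of 0.59 in neither (0.45 to 0.73) and 0.54 in Ankrd1 only (0.21 to 0.86). It was -0.058 in injury only (-0.28 to 0.16) and -0.064 in both (-0.35 to 0.21). Without mitochondrial UMIs these ratios were 0.51, 0.56, 0.14 (-0.073 to 0.35) and 0.088 (-0.24 to 0.41) in the same order. In neither, sham was at 55.1 CPM, so that I/R lay below sham (-0.44, -0.57 to -0.30). SBP over sham there was 0.15 (0.029 to 0.27), and 0.11 (-0.011 to 0.23) without mitochondrial UMIs. In Ankrd1 only, I/R over sham was -0.13 (-0.53 to 0.29) and SBP over sham 0.41 (0.013 to 0.81).

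**Figure D4:**
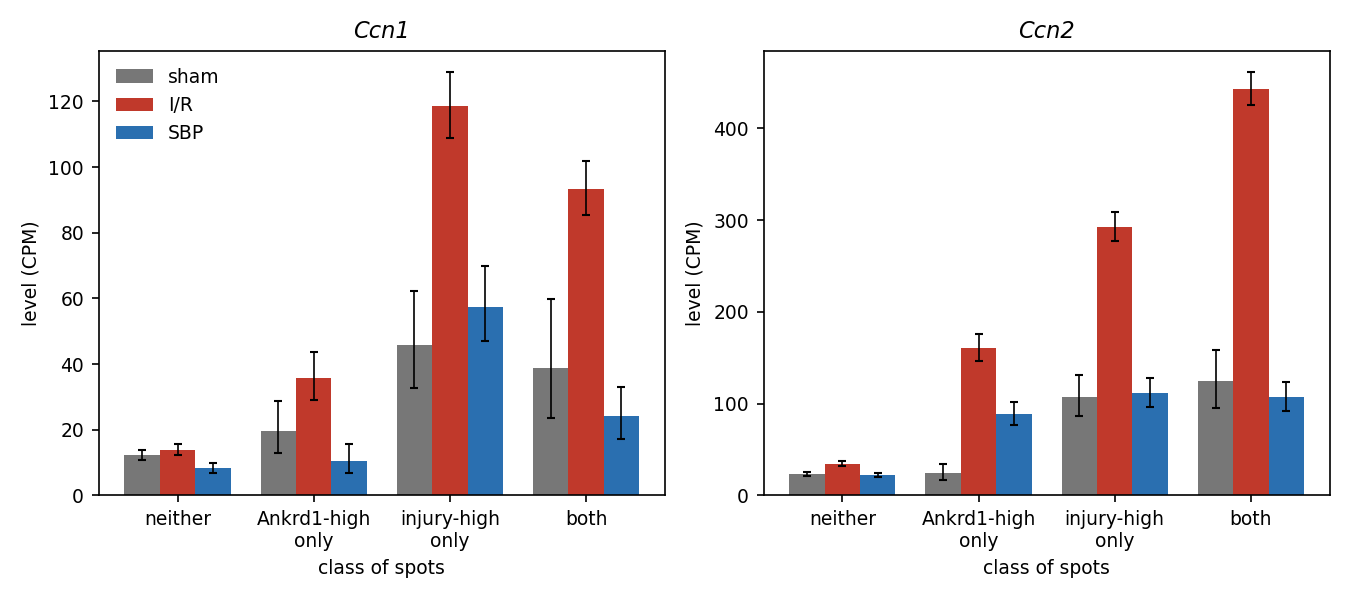
Level in CPM (bars from 0, exact Poisson 95% intervals) of Ccn1 (left) and Ccn2 (right) in spots high in neither, in Ankrd1 only, in the 7 injury genes only, or in both, for sham (grey), I/R (red) and SBP (blue). Ccn2 in I/R is highest in spots high in both (444 CPM), and Ccn1 in spots high in injury genes only (119 CPM).

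Spots rich in markers of a cell type (the top 10% of a section by summed marker UMIs per 10000) were compared with the rest. In I/R, Ccn1 was higher in spots rich in neutrophil (log2 ratio 2.20), endothelial (1.72), smooth muscle (1.67), macrophage (1.41) and fibroblast markers (1.15), and lower in those rich in cardiomyocyte markers, where its ratio was -1.50. For Ccn2 the ratio was 1.68 with smooth muscle, 1.24 with neutrophil, 1.15 with endothelial, 0.99 with fibroblast and 0.80 with macrophage markers, and -1.94 with cardiomyocyte markers. Ankrd1, which encodes a sarcomere protein, was also lower in spots rich in cardiomyocyte markers, by -0.91 in I/R, -0.85 in sham and -0.58 in SBP. A low ratio there thus does not place a gene outside cardiomyocytes. Spots rich in these cell types other than cardiomyocytes had low mitochondrial shares, from 20.3% (neutrophil) to 34.0% (fibroblast), against 45.5% to 46.1% in the rest of I/R. Over UMIs without mitochondrial genes the order of Ccn2 changed to smooth muscle (1.34), endothelial (0.74), fibroblast (0.72), neutrophil (0.68) and macrophage (0.25), while Ccn1 was still highest with neutrophil markers (1.65) and lowest of these with macrophage markers (0.86). In SBP both genes had their highest ratio in spots rich in neutrophil markers, 1.83 for Ccn1 and 1.57 for Ccn2, and without mitochondrial UMIs these were 1.64 and 1.38. For Ccn1 in SBP the next were endothelial (1.73), fibroblast (1.54) and smooth muscle markers (1.36). For Ccn2 they were fibroblast (1.21), smooth muscle (1.19) and endothelial markers (0.72). In sham, where neutrophil markers were sparse, Ccn2 was highest in spots rich in smooth muscle (1.82) and fibroblast markers (1.67). With pericyte markers the ratio in I/R was 0.24 for Ccn1 (-0.016 to 0.49) and -0.24 for Ccn2 (-0.40 to -0.093). With blood markers it was 0.92 for Ccn1 (0.47 to 1.35) and 0.42 for Ccn2 (0.13 to 0.69) in SBP. In I/R these were -0.24 (-0.52 to 0.021) and -0.071 (-0.21 to 0.065). Of the neutrophil-rich spots, 16.8% in I/R and 37.2% in SBP were Ankrd1-high, and the part of this in the ratios was not tested. Most defining markers of mesothelium were near 0, with a summed level of 2.31 to 2.45 CPM.

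Across single spots, the genes were compared by Pearson's r of log2(1 + UMIs per 10000), given as a description since spots of a section share a library and a total of UMIs. Ccn1 and Ccn2 correlated with r = 0.476 over the 2082 I/R spots, 0.185 over 1960 in SBP and 0.166 over 2234 in sham. Only 99 spots in SBP and 95 in sham held UMIs of both genes, against 523 in I/R, and the part of these sparse counts in the lower r was not tested. For Ccn2 and Ankrd1 r was 0.511, 0.308 and 0.150 in I/R, SBP and sham, and for Ccn1 and Ankrd1 0.256, 0.103 and 0.142. Against these, the median r of Ccn2 with all genes was 0.0926, 0.0282 and 0.028, and the 99th percentile 0.487, 0.228 and 0.155. Ankrd1 passed that percentile in I/R and SBP but not in sham, and Ccn1 passed it in sham only. For Axl and Ccn2 r was 0.292 over the I/R and 0.123 over the SBP spots, below the values of Ccn2 with Ankrd1 and above those of Ccn1 with Ankrd1. No pair with Amotl2, Ajuba or Lats2 passed 0.112 in any section, and these genes had few UMIs per spot. Among 8071 genes ranked by r with Amotl2 in I/R, Ccn2 was 10th, Ankrd1 38th and Ccn1 58th. Their r of 0.111, 0.0998 and 0.0956 passed the 99th percentile of 0.0907. In that order the ranks were 124, 2155 and 892 of 6363 in SBP. In I/R they were 73, 1183 and 48 of 8072 with Ajuba, and 952, 881 and 166 of 8071 with Lats2. With spots thinned to a like depth, r of Amotl2 in I/R was 0.0682 with Ccn2, 0.059 with Ankrd1 and 0.0705 with Ccn1. Without mitochondrial UMIs it was 0.0717, 0.076 and 0.0594, so the order of these genes was not stable. All these values are a description only, and the ranks are not given at like depth.

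**Figure D5:**
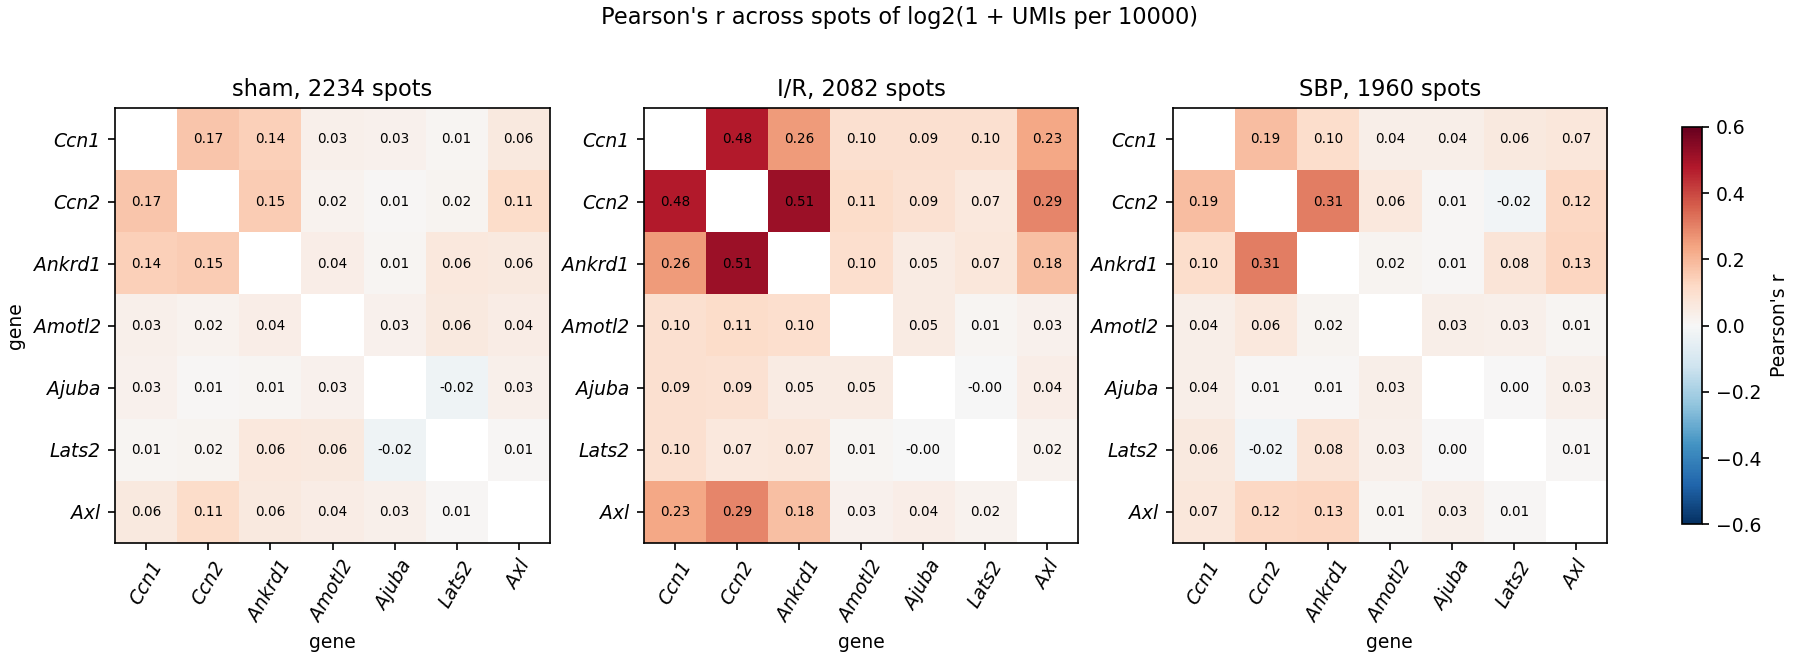
Pearson's r between each pair of the 7 genes across spots of log2(1 + UMIs per 10000), for sham (2234 spots), I/R (2082) and SBP (1960), with red for positive r. The block of Ccn1, Ccn2 and Ankrd1 is darkest in I/R, with 0.476 for Ccn1 and Ccn2 and 0.511 for Ccn2 and Ankrd1, and the feedback regulators are pale in all sections.

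The genes most like Ccn2 across I/R spots, of 4615 genes with at least 500 UMIs, were Nppb (r = 0.647), Timp1 (0.638), Hspb1 (0.631), Cryab (0.618) and Xirp2 (0.616). Nppb encodes the natriuretic peptide BNP, Hspb1 and Cryab small heat shock proteins, and Xirp2 a protein of the cardiac intercalated disc. Among those most like Ccn1 were Actg1 (0.506), Actb (0.496), Timp1 (0.495) and Rplp1 (0.495). Actb and Actg1 encode cytoplasmic actins and Rplp1 a ribosomal protein. Timp1 also stands in the injury list used above. In SBP the same genes had r of 0.302 to 0.376 with Ccn2 and of 0.207 to 0.247 with Ccn1.

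Among the other genes of the pathway, the kinases and effectors were past 2-fold at a share near that of all genes (8.38% higher in I/R than in sham, 4.53% lower in SBP than in I/R). Of the kinases and adaptors, 11 of 12 had enough UMIs, and Mob1a, a co-activator of the LATS kinases, was the 1 gene past the fold in I/R over sham (1.28, 1.09 to 1.47), with none in SBP over I/R. Of the effectors and partners, 11 of 13 had enough UMIs, and 1 gene was past the fold in I/R over sham and 1 in SBP over I/R. Yap1 itself had 18.3, 22.7 and 22.2 CPM (sham, I/R, SBP), and Wwtr1 at 24.8, 28.9 and 28.4, so that neither had the lower SBP level of Ccn1 and Ccn2. Tead2, a YAP-binding factor, was 1.05 higher on the log2 scale in I/R than in sham, and Vgll3, a TEAD cofactor, had a log2 ratio of -1.21 for SBP over I/R (-1.56 to -0.86).

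Of 16 other genes known as YAP targets, 14 had enough UMIs, and 5 were at least 2-fold higher in I/R than in sham, against 8.38% of all genes. These were Igfbp3 (1.33, 1.13 to 1.54), Myof (1.09, 0.84 to 1.36), Nt5e (1.04, 0.68 to 1.41), Nuak2 (1.05, 0.67 to 1.45) and Tgfb2 (1.05, 0.75 to 1.37), on 80 to 263 UMIs in sham. All but Igfbp3 lay near the fold, with intervals that reach below it. The median of the list was 0.34, against 0.24 over all genes. None of the 14 was 2-fold lower in SBP than in I/R, against 4.53% of all genes, and their median was -0.077 against -0.17 over all genes.

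Among the remaining lists, Ccn4, another CCN gene, was higher in I/R than in sham (1.51) and lower in SBP than in I/R, with a log2 ratio of -1.04, on 47 to 161 UMIs, while Ccn3 and Ccn5 were past 2-fold in neither. Of 8 receptors of CCN proteins, the integrin genes Itgam (1.50), Itga5 (1.25) and Itgb3 (1.12) were at least 2-fold higher in I/R than in sham (8.38% of all genes), and Itgb3 and Itgam had log2 ratios of -1.46 and -1.03 for SBP over I/R (4.53% of all genes past the fold). Itgam is also a marker of myeloid cells. Gas6, the ligand of Axl, had 56.8, 57.9 and 63.7 CPM, and Mertk, another receptor of Gas6, had a log2 ratio of -1.49 for SBP over I/R (-2.45 to -0.62) on 14 and 55 UMIs. Ankrd2, the closest relative of Ankrd1 in the list, had 25, 275 and 58 UMIs in the same order, with log2 ratios of 3.19 (2.60 to 3.84) for I/R over sham and -1.76 (-2.20 to -1.35) for SBP over I/R, and was the most concentrated of all 8071 genes in the Ankrd1-high spots of I/R (2.50). Of 7 genes of SRF, its cofactors and targets, Mrtfa was higher in I/R than in sham (1.05), and Srf and Cnn1 were lower in SBP than in I/R, each with a log2 ratio near the fold (-1.04 and -1.05), against 4.53% of all genes. The median of this list for SBP over I/R was -0.80, the value of Tagln, against -0.17 over all genes. Cnn1 and Tagln are also among the smooth muscle markers, whose summed level in SBP lay below that of I/R, and the part of that in these values was not tested.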

How the data were processed

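Visium libraries of 3 mice (sham, I/R, SBP), 1 section per mouse, were analysed. The deposited values are unnormalized UMI counts of genes in spots over tissue, made with Space Ranger 1.3.0 on mm10 per the labels and file headers, while the methods of the paper name another version and a human reference. Groups were taken from the labels. Spots under 200 detected genes were left out. Totals were 25118258 UMIs (sham), 30238530 (I/R) and 21631280 (SBP). UMIs were summed over spots and divided by all UMIs (CPM), and a gene counted as past the fold at 2-fold with 50 or more UMIs over the compared pair of sections, or 200 in a section for ratios within it. Intervals were exact Poisson, Clopper-Pearson or conditional binomial ones. For shares, spots were thinned to 6500 UMIs, and spots with fewer UMIs were left out. Spots were neither clustered nor named, and no doublet caller was run.

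The genes and lists were chosen with earlier results of these data known. The text names the 7 genes, listed pathway genes past 2-fold, and the 5 genes with at least 500 UMIs most like Ccn1 and Ccn2 in I/R. Yap1, Wwtr1, Gas6, Ccn3 and Ccn5 of these lists were added after their values were seen. A gene of the injury list, also among those most like Ccn1, is not reported here and was left out of the injury score. The intervals were tested on simulated counts drawn with Poisson error only. That simulation held no variation between spots, sections or mice, so it does not bear on such variation. Alternatives were other denominators, scalings, thresholds, filters and weights. Python 3.11.15, numpy 2.4.6, scipy 1.17.1, pandas 2.3.3 and edgeR 4.0.16 (TMM) in R 4.3.3 were used, with GENCODE M21 for gene positions.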

Additional observations from a re-analysis of the deposited data

How the results depend on the processing

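No paired analysis was possible because 1 section per condition was measured, and for the same reason no replicate could be left out. The difference of Ccn1 and of Ccn2 between I/R and the other sections kept its direction under every scaling, filter and weight tried. The log2 ratio of I/R over sham was 1.45 for Ccn1 and 2.26 for Ccn2 with TMM factors, 1.44 and 2.25 with median-of-ratios factors, 1.94 for Ccn1 with equal weight for each spot and 2.37 for Ccn2 without mitochondrial UMIs. For SBP over I/R, Ccn2 was at -1.73 with either TMM or median-of-ratios factors, and Ccn1 at -1.94 without the 1% of spots with the most of the gene. The ratio of Ankrd1-high over other I/R spots for Ccn2 was 2.23 at the 90th and 1.74 at the 99th sham percentile, 1.83 with the 95th percentile of I/R itself and 1.47 without mitochondrial UMIs, and for Ccn1 it was 0.54 without them. In SBP it was 1.91 for Ccn2 at the 99th percentile. With spots grouped by injury genes, the I/R ratio was 2.63 for Ccn1 and 2.85 for Ccn2, and the SBP ratio 2.28 and 1.86. The r of Ccn1 and Ccn2 in I/R was 0.395 as Spearman's rho, 0.410 with thinned spots and 0.412 without mitochondrial UMIs. The signs that turned were Axl in I/R over sham (-0.059 with TMM, -0.066 with median-of-ratios) and in SBP over I/R (-0.0026 with equal weight), and, without mitochondrial UMIs, Ankrd1-high over other spots for Ccn2 in sham (-0.032) and Lats2 in I/R (-0.082). The same denominator, for the crossed classes chosen after seeing the data, turned Ccn1 of both over Ankrd1 only in sham to -0.47. It also turned ratios whose interval had held 0, among them Ccn2 of both over injury only in sham (0.21 to -0.87, -1.56 to -0.23) and in SBP (-0.055 to 0.11), Ccn2 of Ankrd1 only over neither in sham (0.058 to -0.298), and SBP over sham in spots high in both for Ccn1 (-0.68 to 0.38) and Ccn2 (-0.22 to 0.76). The causes were not tested. Depth limits Ajuba and Lats2, which had a UMI in at most 17.4% of the spots of a section.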

Other observations

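Few spots held much of the UMIs of Ccn2. Spots with at least 1 Ccn2 UMI made up 20.4% of the sham, 55.3% of the I/R and 26.8% of the SBP section. After thinning to 6500 UMIs they were 12.8%, 38.7% and 17.6% of the spots with at least that depth. This left out 132 sham, 202 I/R and 213 SBP spots as too shallow. The order of the sections was therefore the same at like depth among the deeper spots. For Ccn1 the shares were 12.8%, 34.7% and 11.3%, and thinned 8.37%, 18.8% and 6.81%. In I/R, 7.35% of the spots held 50% of the Ccn2 UMIs, and the highest spot had 56. This share was 4.92% in sham and 6.02% in SBP. In I/R it was 7.78% for Ccn1, 7.30% for Lats2, 3.36% for Ajuba, 9.56% for Amotl2 and 14.9% for Axl. A share of this size was thus not particular to Ccn2 or to I/R. A gene with few UMIs can only lie in few spots, however. In I/R, Ajuba had 175 UMIs and Lats2 421, against 4787 for Ccn2. The shares are therefore not compared at like counts, and the part of the UMI number in them was not tested.

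Ccn2 in sham was also at 108 CPM in the 80 spots high in injury genes only (87 to 132) and 124 in the 32 high in both (95.6 to 159), against 23.1 in the 2042 spots high in neither. In SBP the spots high in both were at 107 CPM (91.8 to 124) and those high in injury genes only at 111 (96.2 to 128), so the intervals in these classes overlapped those of sham and lay below the 444 and 292 CPM of I/R. Without mitochondrial UMIs, SBP over sham was 0.76 in spots high in both (0.13 to 1.45) on the log2 scale and -0.22 in injury only (-0.54 to 0.11).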
